A study of Mus musculus with 2 samples.

Results

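The genes described here are 47 genes of DNA replication and mitosis, followed in RNA from mouse samples labelled as keratinocytes, the epithelial cells of the epidermis. They were chosen by gene symbol and found on the arrays through the RefSeq accession of each probe. All 47 were represented among the 20144 genes named on the arrays. A total of 26 act in the S phase or at its entry, and 21 act in G2 and mitosis. The tested sample was labelled as Rac1Rac3-DKO, P3 primary keratinocytes from mice lacking both Rac1 and Rac3. Its control was labelled as Rac3-KO, P3 primary keratinocytes from mice lacking Rac3, so the loss of Rac3 was common to both groups. Total RNA of each sample was hybridised to 1 single-colour array. The strain, the number of animals and the means of deleting Rac1 were not given in the sources used here. No age was given either, unless P3 in the labels stands for one, which was not resolved here. Rac1 and Rac3 are small GTPases that relay signals to the actin cytoskeleton.

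A dividing cell copies its DNA in the S phase and parts the copies in mitosis. Before the S phase, the loading factors Cdc6 and Cdt1 place the Mcm helicase on origins of replication, and Cdc45 and the GINS complex then switch it on. Transcription factors of the E2F family are known to drive many S-phase genes. Genes of G2 and mitosis are switched on later in the cycle, many of them through a promoter element called CHR beside CCAAT boxes. In epidermis and hair follicles the dividing cells lie mainly in the basal layer and the hair matrix.

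Each genotype had 1 array and so no replicate, genotypes could not be tested against each other, and having only 2 arrays limits how precise any value is. Of 55678 probes, 29433 (52.9%) gave a signal well above background with DKO-labelled RNA and 31704 (56.9%) with Rac3-KO RNA. No spot was saturated. Before scaling, the 75th percentile of the processed signal was 354 on the DKO-labelled array and 705 on the Rac3-KO array, so levels are given as log2 processed signal relative to each array's own 75th percentile. A difference is the level on the DKO-labelled array minus that on the Rac3-KO array. The deleted gene did not check the labels: the brighter Rac1 probe had a level of 5.10 on the DKO-labelled array and 4.82 on the Rac3-KO array, and Rac3 had -2.58 and -2.82 on the same arrays. A second Rac1 probe differed by -0.12. Whether these probes lie in the deleted parts is not given in the sources used here. The labelled cell type was checked as well: keratinocyte markers were well above background on both arrays, and so were markers of connective tissue, blood and muscle. Krt5, a keratin of basal keratinocytes, had a level of 7.08 on the DKO-labelled array and 8.28 on the Rac3-KO array. Col1a2, a fibroblast collagen, had 9.98 and 9.13 on the same arrays, Hba-a1, a haemoglobin chain of red blood cells, 9.99 and 9.27, and Tnnc2, a fast muscle troponin, 9.52 and 7.12. The RNA labelled as keratinocyte thus held transcripts of other cell types at levels far above the 75th percentile of each array.

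Promoters are shown first, because the 2 classes of members differed in promoter letters as well as in the size of their differences. RefSeq promoters of build GRCm38.p6 were found for 38 of the 47 members, each covering 250 bases before the transcription start and 50 after it. For each class the members shown are those with the 2 lowest differences and the difference nearest 0 among members with a promoter. Each line gives the 200 bases before the start, 5′ to 3′, with motif matches on either strand in capitals. The motifs are E2F (TTTCCCGC, TTTCGCGC, TTTGCCGC or TTTGGCGC), CHR (TTTGAA or TTCGAA) and the CCAAT box (CCAAT), and none of them contains another. The first 3 are S-phase genes, at chrX:93632156-93632355 on the minus strand, chr19:38930790-38930989 on the plus strand and chr2:154569427-154569626 on the minus strand.
Pola1: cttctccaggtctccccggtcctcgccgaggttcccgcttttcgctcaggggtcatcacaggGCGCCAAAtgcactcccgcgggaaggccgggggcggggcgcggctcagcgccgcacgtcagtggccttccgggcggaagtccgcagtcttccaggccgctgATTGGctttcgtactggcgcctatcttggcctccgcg
Hells: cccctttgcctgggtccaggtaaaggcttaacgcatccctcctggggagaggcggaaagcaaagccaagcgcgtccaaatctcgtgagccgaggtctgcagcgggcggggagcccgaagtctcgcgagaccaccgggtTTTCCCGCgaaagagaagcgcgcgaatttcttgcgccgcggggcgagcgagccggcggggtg
E2f1: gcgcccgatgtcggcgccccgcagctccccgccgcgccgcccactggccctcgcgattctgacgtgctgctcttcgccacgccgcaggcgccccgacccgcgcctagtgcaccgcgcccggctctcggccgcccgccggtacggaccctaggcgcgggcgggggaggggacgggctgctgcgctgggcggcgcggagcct
The other 3 are genes of G2 and mitosis, at chr2:127831860-127832059 on the minus strand, chr19:37376182-37376381 on the plus strand and chr4:118437344-118437543 on the minus strand.
Bub1: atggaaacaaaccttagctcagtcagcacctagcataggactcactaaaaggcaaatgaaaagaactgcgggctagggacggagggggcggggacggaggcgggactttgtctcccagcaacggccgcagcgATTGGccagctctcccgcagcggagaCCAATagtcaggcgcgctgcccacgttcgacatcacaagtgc
Kif11: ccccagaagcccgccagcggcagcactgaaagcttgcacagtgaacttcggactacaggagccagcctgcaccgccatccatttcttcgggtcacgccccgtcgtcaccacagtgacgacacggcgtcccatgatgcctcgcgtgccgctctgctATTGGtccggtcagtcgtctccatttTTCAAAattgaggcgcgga
Cdc20: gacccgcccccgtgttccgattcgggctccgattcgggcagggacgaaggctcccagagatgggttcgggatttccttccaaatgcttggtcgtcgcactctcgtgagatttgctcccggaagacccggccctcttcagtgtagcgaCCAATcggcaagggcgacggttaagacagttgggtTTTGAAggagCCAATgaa
Pola1 and Hells each held an E2F match, beginning 138 and 62 bases before the start, and the E2f1 window held none of these letters. That holds for the listed start of E2f1 only. Whether it is the main start of the gene was not checked, so nothing follows for other promoters of E2f1. Kif11 and Cdc20 each held a CHR match close to the start, beginning 19 and 18 bases before it, with a CCAAT box upstream. Bub1 held CCAAT boxes in the printed stretch and a CHR match beginning at base 15 after the start, outside it.

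The E2F motif was found in 11 of 22 S-phase members with a promoter and in 1 of 16 G2 and mitotic members (6.25%), which was Cdk1. It was found in 4.42% of 11201 genes measured on both arrays, and in 2.26% of all 32851 promoters of the same length. The CHR motif showed the opposite split: 5 of 22 S-phase members (22.7%) and 12 of 16 G2 and mitotic members held it, against 16.9% of measured genes and 19.2% of all promoters. Within 50 bases of the start the CHR motif was found in 1 S-phase member (4.55%) and in 11 G2 and mitotic members (68.8%), against 4.54% of measured genes. CCAAT boxes were found in 15 S-phase members (68.2%) and 14 G2 and mitotic members (87.5%), against 42.5% of measured genes and 37.4% of all promoters. A gene counts when any of its promoters holds the motif, whereas the shares of all promoters are per promoter. By gene, over all 27025 genes with a promoter, the shares were 2.6% for E2F, 21.7% for CHR and 41.1% for CCAAT boxes. A match describes letters only and is not a shown binding site. The counts rest on the listed starts, and whether each is the main start of its gene was not checked.

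**Figure D1:**
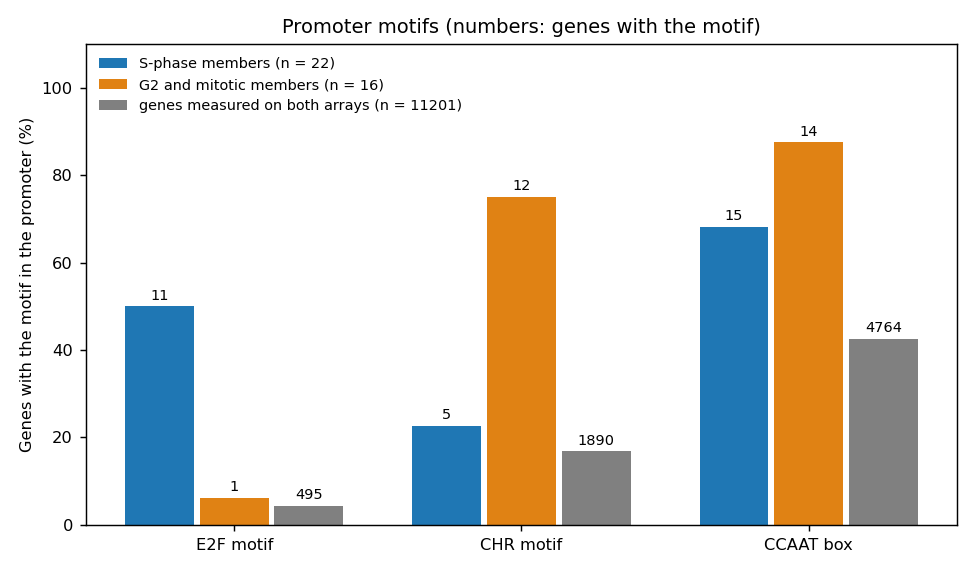
Share of genes whose promoter (250 bases before to 50 after the start) holds each motif on either strand, in percent, for 22 S-phase members, 16 G2 and mitotic members and 11201 genes measured on both arrays. Numbers above the bars are genes with the motif: E2F letters are in 11 S-phase members and 1 G2 and mitotic member, CHR letters in 5 and 12.

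All 46 members that were well above background on both arrays were lower on the DKO-labelled array, beside 50.5% of all 14144 genes measured in this way. S-phase members were lower by more than G2 and mitotic members. Of 25 measured S-phase members 13 (52.0%) were at least 2-fold lower, and of 21 G2 and mitotic members 1 (4.76%), beside 6.62% of all measured genes. No measured member was at least 2-fold higher, beside 7.71% of all measured genes. The share of G2 and mitotic members past 2-fold was thus near the background, and their difference lay in smaller shifts: 10 of them, and 21 of the S-phase members, were at least 1.5-fold lower, beside 16.5% of all measured genes. The median difference was -1.09 (log2) for the S-phase members and -0.57 for the G2 and mitotic members, beside -0.008 for all measured genes. The only member not measured was Ccne2, whose probe was not well above background on either array.

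The S-phase median lay 0.52 (log2) below the G2 and mitotic median, which is a ratio of 1.43 and does not depend on a constant scaling between the arrays. With normexp, a model-based correction that takes background from the spot signal, the distance was -0.34 in place of -0.52. Of the 25 S-phase members 23 lay below the G2 and mitotic median, and 1 G2 and mitotic member, Aurkb, lay below the S-phase median. In 434 of 525 pairs made of a member of each class (82.7%) the S-phase member had the lower difference. These are counts over genes of 2 samples, and genes are not replicates.

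The error known for a single gene is technical. The scanner software's signal error had a median of 0.20 on the log2 difference of a member. Differences of probes for the same gene had a median SD of 0.19 over 3578 genes with several measured probes. The root mean square of these SDs was larger, at 0.38. The difference exceeded 1.96 signal errors in 24 of 25 S-phase members and 17 of 21 G2 and mitotic members. Passing this limit was common among all measured genes. Their median signal error was 0.20 as well, and the lower and upper quartiles of their differences, -0.40 and 0.41, lay close to the limit on either side of 0. None of these errors holds the variation between cultures or animals.

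**Figure D2:**
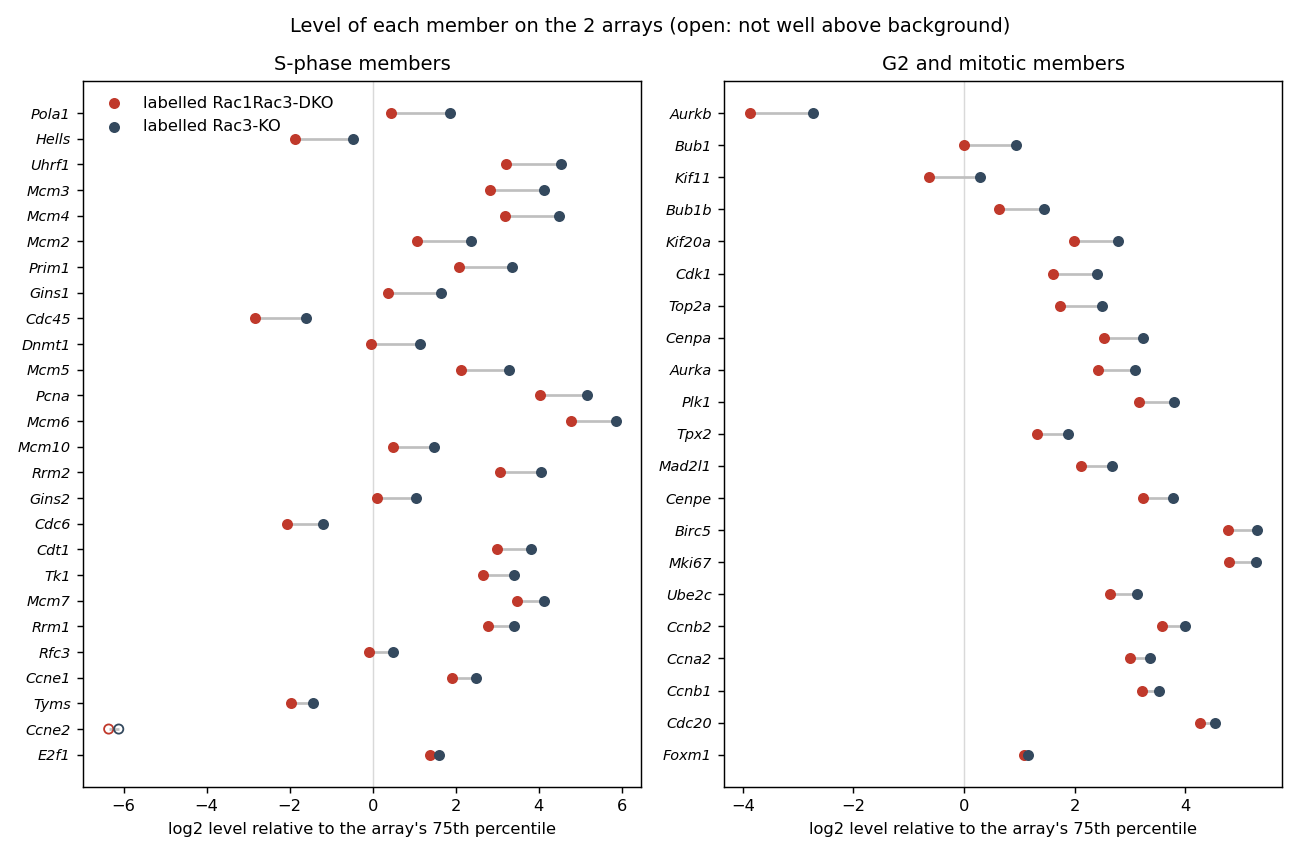
Level of each member (x axis, log2 processed signal relative to the array's 75th percentile) on the DKO-labelled array (red) and the Rac3-KO array (dark), 1 array each, with S-phase members on the left and G2 and mitotic members on the right, ordered by difference. The red point lies left of the dark point for every member, closest for Foxm1 among measured members, and the open points of Ccne2 mark signals not well above background.

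Helicase loading genes were lower throughout. The Mcm2 to Mcm7 proteins form the ring that unwinds DNA. Mcm3 had a level of 2.81 on the DKO-labelled array and 4.13 on the Rac3-KO array, a 2.49-fold lower value. Mcm4 had levels of 3.17 and 4.48 on the DKO-labelled and Rac3-KO arrays, and Mcm2 had 1.07 and 2.37, so that these 3 subunits differed by nearly the same amount, between -1.30 and -1.32. Mcm5 was 2.25-fold lower, at 2.11 on the DKO-labelled array and 3.29 on the Rac3-KO array, and Mcm6 was 2.13-fold lower, at 4.77 and 5.85 on the same arrays. Mcm7 stood apart from the other subunits at 3.47 on the DKO-labelled array and 4.12 on the Rac3-KO array, 1.57-fold lower. Cdc6 and Cdt1, which load the ring, were 1.82-fold and 1.75-fold lower, where normexp gave Cdc6 a difference of -0.48 in place of -0.86. Over the 8 loading genes the median difference was -1.13.

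Genes that start and carry the fork were lower by a like amount. Gins1, a subunit of the GINS complex, had levels of 0.36 on the DKO-labelled array and 1.64 on the Rac3-KO array and was 2.42-fold lower. Gins2 was 1.93-fold lower. Cdc45, which joins the Mcm ring and GINS, was 2.34-fold lower at a dim probe, with processed signals of 49.3 on the DKO-labelled array and 230 on the Rac3-KO array, and normexp gave -0.42 in place of -1.23. Mcm10, which helps to activate the helicase, lay just short of the threshold at 1.99-fold lower. Pola1, the catalytic subunit of the polymerase that starts each new strand, had a difference of -1.43, with levels of 0.44 on the DKO-labelled array and 1.87 on the Rac3-KO array. This was the lowest of all members as processed here, but with normexp it was Mcm4 that lay lowest, at -1.59, with loess Hells, at -1.46, and with the second brightest probe Ccne1, at -1.74. Only 2.88% of measured genes had a difference as low or lower. Its partner Prim1, the primase, was 2.43-fold lower, and Pcna, the sliding clamp, was 2.20-fold lower at levels of 4.02 and 5.16 on the DKO-labelled and Rac3-KO arrays. Rfc3, a subunit of the clamp loader, differed by -0.58.

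The 3 genes that copy DNA methylation behind the fork had a median of -1.32. That was the lowest of any role as processed here, but not with normexp (-1.20, beside -1.30 for the polymerase and clamp genes), nor with the mean over probes or the second brightest probe (-1.17, beside -1.21). Hells, a chromatin remodeller, had levels of -1.87 on the DKO-labelled array and -0.47 on the Rac3-KO array and was 2.64-fold lower, or -0.84 in place of -1.40 on the log2 scale with normexp. Uhrf1, which recognises half-methylated DNA and recruits the methyltransferase, was 2.50-fold lower at levels of 3.20 and 4.53 on the same arrays. Dnmt1, the maintenance methyltransferase itself, was 2.26-fold lower at -0.04 on the DKO-labelled array and 1.13 on the Rac3-KO array.

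Genes of nucleotide supply were lower by less as processed here. None of the 4 was 2-fold lower, and their median was -0.68. With normexp their median was -0.91, beside -0.88 for Mcm10, Cdc45, Gins1 and Gins2, so the order of these roles was reversed. Rrm2, the regulated subunit of ribonucleotide reductase, was 1.98-fold lower, with levels of 3.07 on the DKO-labelled array and 4.05 on the Rac3-KO array, and passed 2-fold with normexp, at -1.17. Its constant partner Rrm1 was 1.53-fold lower. Tk1, thymidine kinase, was 1.68-fold lower and Tyms, thymidylate synthase, 1.46-fold lower, though Tyms differed by only -0.10 with normexp. Of the regulators of S-phase entry, Ccne1, the cyclin E1 that activates Cdk2, differed by -0.58. The transcription factor E2f1 had a difference of -0.22, at levels of 1.39 on the DKO-labelled array and 1.60 on the Rac3-KO array, within 1.96 signal errors of 0, and -0.41 with normexp. It was the S-phase member nearest 0 except with normexp, where Tyms was.

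**Figure D3:**
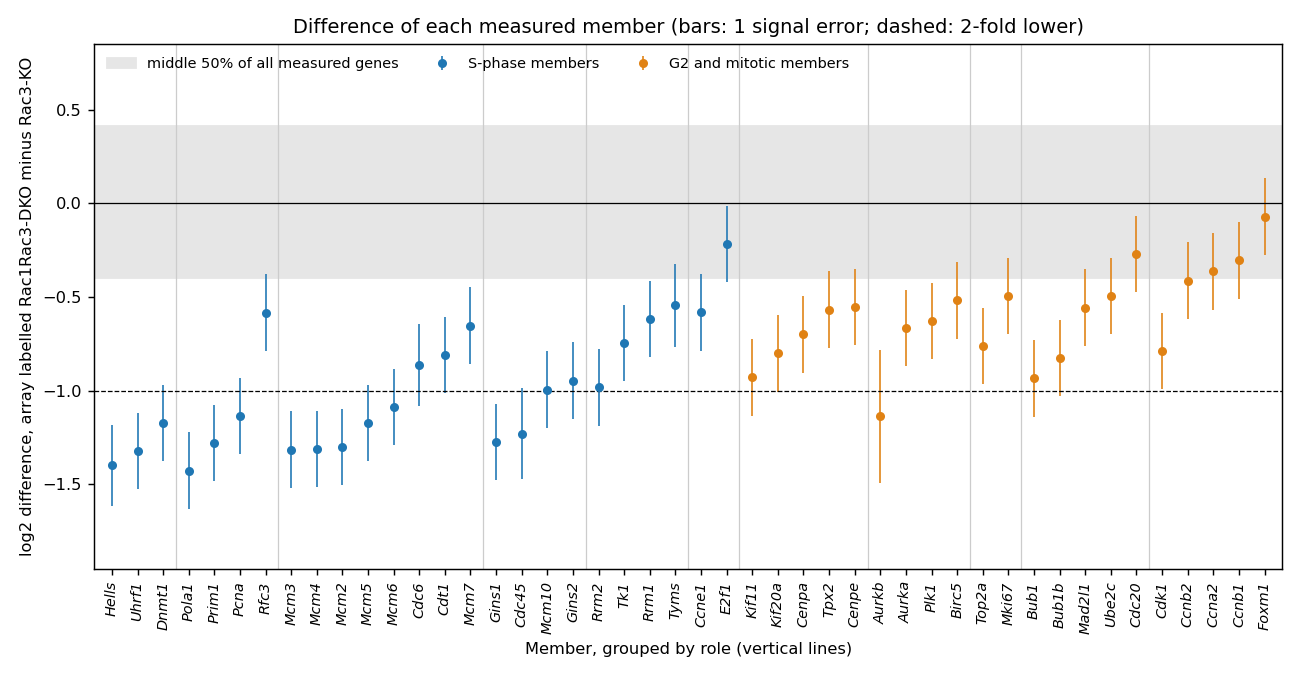
Log2 difference of each of the 46 measured members (y axis), array labelled Rac1Rac3-DKO minus array labelled Rac3-KO, grouped by role between vertical lines, with bars of 1 signal error of the scanner software. S-phase members (blue) reach below the dashed line of 2-fold lower in 13 cases and G2 and mitotic members (orange) in 1, and the grey band holds the middle 50% of all measured genes.

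Cyclins of the later cycle were among the members nearest 0. Cyclin A2, encoded by Ccna2, had processed signals of 2834 on the DKO-labelled array and 7255 on the Rac3-KO array before scaling, and a difference of -0.36 after it. Ccnb1 and Ccnb2, the B cyclins that bring cells into mitosis, differed by -0.31 and -0.41. Their kinase Cdk1 differed by -0.79 at its brightest probe, at 1.61 on the DKO-labelled array and 2.40 on the Rac3-KO array. The Cdk1 probes did not agree: a second differed by -0.54 and the dimmest by 0.39, the only one of 26 probes of members with several probes that was not below 0. Foxm1, a transcription factor of G2 genes, had a difference of -0.07, at levels of 1.08 and 1.15 on the DKO-labelled and Rac3-KO arrays. It differed by less than its signal error of 0.20 and was the member nearest 0, except with normexp, where it differed by -0.22 and Aurkb lay nearest.

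Mitotic kinases and their partners had a median difference of -0.65. Plk1, which acts at spindle poles and kinetochores, had levels of 3.16 on the DKO-labelled array and 3.79 on the Rac3-KO array, 1.55-fold lower. Aurka, the kinase of the spindle poles, was 1.59-fold lower. Aurkb, the kinase of the chromosomal passenger complex, was 2.20-fold lower, but its processed signal was 24.2 on the DKO-labelled array, close to the lowest signal well above background there, 20.1, against 106 on the Rac3-KO array. With normexp background correction the difference of Aurkb was -0.09 in place of -1.14. Birc5, or survivin, a further member of that complex, was 1.43-fold lower at levels of 4.78 on the DKO-labelled array and 5.30 on the Rac3-KO array, and differed by -0.83 with normexp in place of -0.52.

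Among genes of the spindle checkpoint and of the ubiquitin step that it holds back, differences ran from -0.93 to -0.27. The checkpoint kinases Bub1 and Bub1b were 1.91-fold and 1.77-fold lower. The Bub1 probe was spotted 9 times, with an SD of 0.07 over the spots, and had levels of -0.001 on the DKO-labelled array and 0.93 on the Rac3-KO array. Mad2l1, the checkpoint protein that binds Cdc20, was 1.47-fold lower at its brightest probe, at levels of 2.12 and 2.68 on the DKO-labelled and Rac3-KO arrays. Cdc20, which activates the anaphase-promoting complex, differed by -0.27, with levels of 4.27 and 4.54 on the same arrays. Ube2c, the E2 enzyme of that complex, was 1.41-fold lower.

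Centromere and spindle motor genes had a median of -0.70. Kif11, the motor that pushes spindle poles apart, was 1.90-fold lower at levels of -0.64 on the DKO-labelled array and 0.29 on the Rac3-KO array. Kif20a, a motor of cytokinesis, was 1.74-fold lower. Cenpa, the histone variant of centromeres, was 1.62-fold lower, the kinetochore motor gene Cenpe 1.47-fold and the spindle factor gene Tpx2 1.48-fold. The common proliferation marker Mki67, or Ki-67, had levels of 4.79 on the DKO-labelled array and 5.29 on the Rac3-KO array, a difference of -0.49. A further Mki67 probe differed by -0.50. Top2a, the topoisomerase that untangles chromosomes, was 1.69-fold lower.

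Members with several probes gave further values for 11 genes. Probes of Mki67, Ube2c and Birc5 lay close together, at -0.49 and -0.59 for Ube2c and between -0.37 and -0.60 for the 3 of Birc5. Dimmer probes were lower than the brightest in Ccne1 (-1.74 against -0.58), in Cdc6 (-1.55 against -0.86) and in Mad2l1 (-1.72 and -1.46 against -0.56). The dimmer Ccnb1 probes were lower as well, at -0.57 and -0.43 against -0.31. The dimmer probes of Uhrf1 and Tpx2 went the other way, at -0.95 against -1.32 and -0.28 against -0.57. With the second brightest probe in place of the brightest, the S-phase median was -1.14 and the G2 and mitotic median -0.60.

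**Figure D4:**
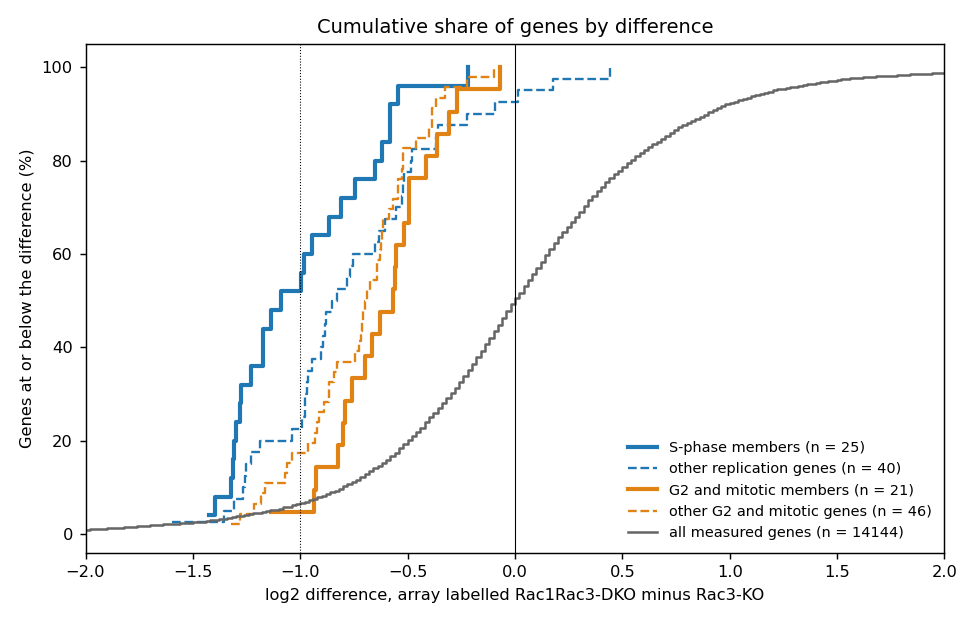
Cumulative share of genes (y axis, percent) at or below each log2 difference, array labelled Rac1Rac3-DKO minus array labelled Rac3-KO (x axis), for the 2 member classes (solid colours), other genes of the same pathways (dashed) and all 14144 measured genes (grey). All 4 pathway curves lie left of the grey curve through most of their length, and the S-phase members have the lowest median, -1.09, though the lowest single gene of the 4 lists is Dscc1 among the other replication genes.

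Other genes of the same pathways were lower too. They were listed from textbook knowledge, but with earlier results of these data known, and come from the same 2 arrays. Of 40 other replication genes, all measured, 37 differed by less than 0, beside 50.5% of all measured genes. Of the 40, 9 (22.5%) passed 2-fold lower, beside 6.62% of all measured genes, and none passed 2-fold higher, beside 7.71%. Their median was -0.84. Dscc1, a subunit of a clamp loader used in sister chromatid cohesion, was 3.02-fold lower, at levels of -1.57 on the DKO-labelled array and 0.02 on the Rac3-KO array. Timeless, a fork protection factor, was 2.55-fold lower. Orc2, a subunit of the origin recognition complex, went against the list at 1.36-fold higher. Of 46 measured of 47 other G2 and mitotic genes, all 46 differed by less than 0, beside the same 50.5%. Of the 46, 8 (17.4%) passed 2-fold lower and none 2-fold higher, beside the same 6.62% and 7.71%. Their median was -0.69. The kinesin gene Kif15 and the checkpoint kinase gene Ttk were 2.50-fold and 2.43-fold lower, but neither passed 2-fold with normexp, where Kif15 differed by -0.89 in place of -1.32 and Ttk by -0.28 in place of -1.28. Between these further lists the medians lay 0.15 apart, less than the 0.52 between the member classes. The promoter split was found in them as well: the E2F motif stood in 9 of 32 other replication genes and 4 of 41 other G2 and mitotic genes, and the CHR motif in 6 and 28.

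Genes that hold the cycle back did not share the difference as a group. Of 17 measured inhibitors and quiescence genes, 1 (5.88%) passed 2-fold lower, near the 6.62% of all measured genes. None passed 2-fold higher, beside 7.71% of all measured genes, and the median was -0.13. The gene 2-fold lower was Rbl1, a pocket protein that binds E2F factors, at 2.74-fold. Cdkn1c, the Cdk inhibitor p57, was 1.68-fold higher, at levels of 6.99 on the DKO-labelled array and 6.24 on the Rac3-KO array. Of 18 measured G1 cyclins, kinases and related factors, none passed 2-fold higher, beside the same 7.71%, and the median was -0.52. In this list 2 (11.1%) passed 2-fold lower, beside the same 6.62%. These were Ccnd2, a D-type cyclin, at 2.29-fold and the transcription factor gene Mycn at 2.06-fold, while Ccnd3, another D-type cyclin, differed by 0.27, or 0.09 with normexp.

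Most keratinocyte markers were lower on the DKO-labelled array, and most markers of other cell types were higher. Sums over a list are of processed signals, each divided by its array's 75th percentile. Of 8 basal keratinocyte markers 5 (62.5%) were at least 2-fold lower, beside 6.62% of all measured genes. The 8 had a median of -1.501 and sums of 228 on the DKO-labelled array and 624 on the Rac3-KO array. Krt14, a keratin of dividing basal cells, had a difference of -1.92, while Dst went against the list at 0.11. All 5 measured suprabasal markers of 7 were at least 2-fold lower, beside the same 6.62%. The 5 had a median of -1.92, led by Krt1, and sums of 29.5 on the DKO-labelled array and 309 on the Rac3-KO array. Relative to the basal keratinocyte median, the S-phase median lay 0.41 higher and the G2 and mitotic median 0.93 higher. The 8 basal markers themselves ran from -2.31 to 0.11, with an SD of 0.77, so both distances depend on the markers listed. Of 9 striated muscle markers 8 (88.9%) were at least 2-fold higher, beside 7.71% of all measured genes. The 9 had a median of 2.60 and sums of 2066 on the DKO-labelled array and 385 on the Rac3-KO array. Tnnc2 was 5.28-fold higher and Myh4 differed by -0.02. Medians were 0.79 over 6 fibroblast markers, 1.16 over 5 measured leukocyte markers of 6, 0.62 over 5 endothelial, 0.82 over 4 measured erythroid of 5 and 0.49 over 4 adipocyte markers, with no marker of these below 0. Their sums were 2496 on the DKO-labelled array and 1428 on the Rac3-KO array for fibroblast markers, 82.7 and 33.5 for leukocyte, 32.5 and 16.3 for endothelial, 1816 and 1038 for erythroid and 213 and 149.9 for adipocyte markers on the same arrays. Without scaling, the fibroblast sums ran the other way, at 884392 on the DKO-labelled array and 1006530 on the Rac3-KO array, as did the erythroid sums, at 643672 and 731876, and the adipocyte sums. The part of cell composition in the differences of the members was not tested. In bulk RNA, fewer dividing cells and less of these RNAs per cell cannot be told apart.

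**Figure D5:**
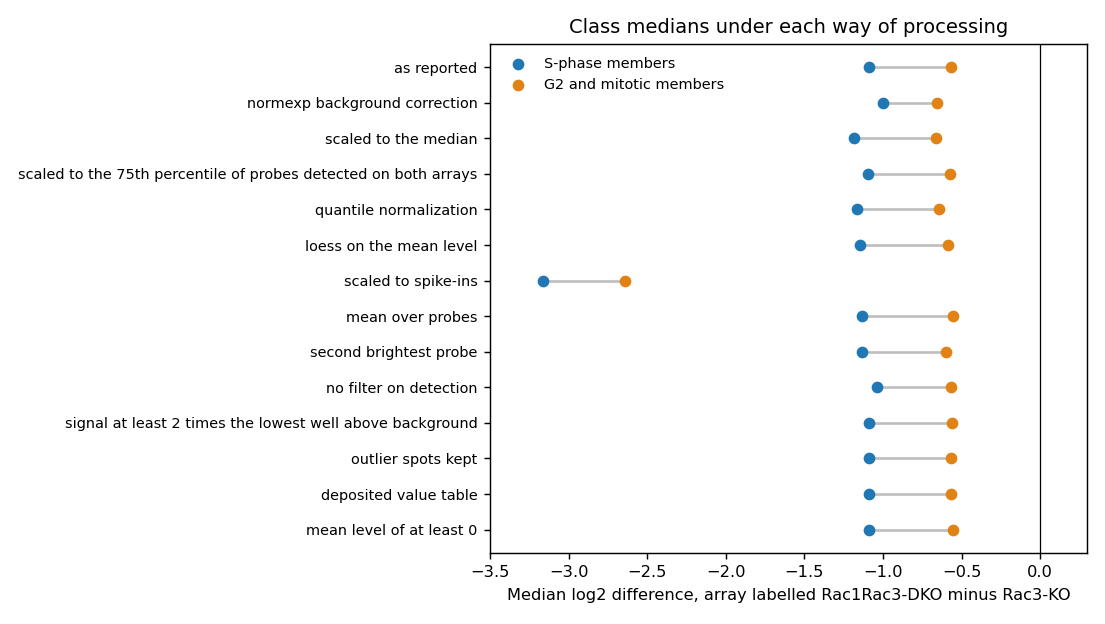
Median log2 difference (x axis), array labelled Rac1Rac3-DKO minus array labelled Rac3-KO, of the S-phase members (blue) and the G2 and mitotic members (orange) under each way of processing (rows). The S-phase median lies left of the G2 and mitotic median in every row, and scaling to spike-ins shifts both by the same amount, to -3.16 and -2.64.

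The distance between the classes kept its sign in every way of processing tried, between -0.34 with normexp and -0.58 with the mean over probes, as the plot of class medians by processing shows. All measured members stayed below 0 in each of them. Scaled to spike-in RNA, the median of all measured genes was itself -2.08, so the members were lower beyond that shared shift by the same amounts as given above.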

How the data were processed

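Spot intensity was taken from the deposited 1-colour scanner files, which name Feature Extraction 10.10.1.1 in their headers; version 9.1 of Agilent Feature Extraction stands in the submitters' processing notes. The processed signal is background-subtracted and detrended within an array and not scaled between arrays, per the file headers. The authors' deposited log2 value table is, for 100% of probes spotted once, the log2 processed signal shifted by 1 constant per array (tolerance 0.001), with column medians of -3.62 (DKO-labelled) and -3.72 (Rac3-KO). The software flags used are other columns of the deposited files.

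Log2 signals were averaged over spots of a probe without control spots and spots marked as outliers (190 on the DKO-labelled and 155 on the Rac3-KO array), and each array's 75th percentile over 55678 probes was subtracted. Accessions named 26580 probes through the GRCm38.p6 table, used for names only because the design refers to an earlier build. A gene took its brightest probe and was called measured when well above background on both arrays. With 1 array a group no test was run, and counts used 2-fold. Calculations used Python 3.11.15 with pandas 2.3.3 and limma 3.58.1, and were tested on simulated data. The normexp alternative (offset 50) used the median spot signal. The members and lists were chosen with earlier results of these data known. Named were all members, Rac1 and Rac3, and of other lists up to 2 genes each way past 2-fold or the largest each way, plus the 2 brightest markers; of these the text gives a part. The further probes named were chosen after their values were seen.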

Additional observations from a re-analysis of the deposited data

How the results depend on the processing

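The alternatives were normexp, 5 other scalings, 2 other choices of probe, 2 other filters, outlier spots kept, the deposited value table and other fold thresholds. Restricting members to a mean level of at least 0 was chosen after seeing the data. Scaled to spike-ins, every difference shifted by the same -2.07, so that 93.3% of all measured genes were at least 2-fold lower, as were 25 S-phase and 21 G2 and mitotic members, which says nothing about the members. The medians were -3.16 and -2.64, and 6835 of the 6995 genes above 0 turned below 0, among them the named markers Col1a1, Itgam, Csf1r, Cldn5, Kdr and Slc4a1, at least 2-fold higher before, at -1.06, -0.91, -0.63, -0.9997, -0.91 and -0.040. At 1.5-fold the counts lower were 21 S-phase and 10 G2 and mitotic members, beside 16.5% of all measured genes, and at 3-fold 0 and 0, beside 2.23%. The count of 1 G2 and mitotic member at least 2-fold lower rested on Aurkb: it was 0 with normexp, with the stricter filter on dim probes and with members of a mean level of at least 0, 3 when scaled to the median, and 2 with the mean over probes and with the second brightest probe. The S-phase count was between 11 and 16 under the remaining alternatives, and its median between -1.001 and -1.18, where 4.70% to 8.14% of all genes were at least 2-fold lower. With normexp the S-phase count was again 13, but Cdc45 and Hells no longer passed and Gins2 and Rrm2 did. Leaving out a replicate was not possible with 1 array a group. No paired analysis was possible because each group has 1 sample. Dim probes limit Aurkb, Cdc45, Cdc6, Tyms and Hells, whose differences with normexp were -0.09, -0.42, -0.48, -0.10 and -0.84.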

Other observations

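Members with E2F or CHR letters in their promoter had lower median differences than members of the same class without them. Within the S-phase class the 11 members with an E2F motif had a median difference of -1.17, ranging from -1.43 to -0.58. The 11 members whose scanned promoter lacked it had -0.98, ranging from -1.30 to -0.22. The value of -0.22 is that of E2f1, whose listed start was not checked as its main one, so its place in this group is uncertain. For the CHR motif in the same class the medians were -1.17 over the 5 members with it and -0.99 over the 17 without. Among G2 and mitotic members they were -0.68 over the 12 with CHR letters and -0.54 over the 4 without. The S-phase groups are not separate, because Mcm7, Rfc3 and Dnmt1 held both CHR and E2F letters. The ranges overlapped in each case, and the values are a description of 2 arrays. Whether either motif has a part in the differences was not tested.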
